A study of Mus musculus with 6 samples.

Results

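The synaptotagmins and the genes of SNARE-driven exocytosis were taken as every non-control probe of the array whose gene name is a numbered Syt, Sytl, Stx, Stxbp, Vamp or Snap, together with Unc13a, Unc13b, Unc13d, Napa, Nsf and Sgip1. This gave 122 probes for 61 genes among the 41174 probes of the array, and 49 of the 61 genes could be tested. The study hybridised RNA of CD4 T cells given vasoactive intestinal peptide (VIP, a neuropeptide that acts on T cells through G protein-coupled receptors) against RNA of CD4 T cells left without it, on 6 Agilent 2-colour arrays, so each treatment had 6 samples and each array held 1 sample of each. All samples were resting, that is without an activating stimulus, and came from spleens of C57BL/6J mice of both sexes, 6 to 32 weeks old. Each sample pooled 5 to 10 spleens and was purified with anti-CD4 magnetic beads; the labels used here state neither dose nor time of VIP. VIP was in the red dye (Cy5) on replicates 1, 3 and 5 and in the green dye (Cy3) on replicates 2, 4 and 6. The 6 arrays lay on 3 slides, each with an array of either dye orientation.

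Vesicles fuse with their target membrane when a SNARE on the vesicle (the VAMPs) zips together with SNAREs on the target (the syntaxins and the SNAP-23 and SNAP-25 relatives). Munc18 proteins, encoded by Stxbp genes, hold syntaxins ready, Unc13 proteins prime docked vesicles, and NSF with alpha-SNAP (Napa) takes spent complexes apart. Synaptotagmins are membrane proteins with paired C2 domains; some sense calcium and trigger fusion, while others, Syt13 among them, lack the residues that bind it. Synaptotagmin-like proteins carry the same kind of domains and tie Rab27-bearing vesicles to the plasma membrane. In T cells this machinery serves cytokine secretion, receptor recycling and, in cytotoxic cells, the release of lytic granules.

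With VIP, 4 of the 49 tested genes rose and none fell at an adjusted p under 0.05 in limma: Syt13, Sgip1, Sytl2 and Vamp4. With the brightest probe standing for each gene, Syt13 rose most, to 2.33-fold, and had the highest ratio of all 19225 genes tested; with the mean of a gene's measured probes, Sgip1 (0.80 on the log2 scale) lay above Syt13 (0.61). Sgip1, which encodes an adaptor of clathrin-mediated endocytosis, rose to 1.58-fold, Sytl2 to 1.31-fold and Vamp4 to 1.15-fold. The other 45 genes, including every tested syntaxin, Munc18, SNAP, Unc13, NSF and alpha-SNAP gene, did not pass. Of these, 7 had an unadjusted p under 0.05 in limma. The fitted value was higher for 5 (Stx7, Stx11, Stx12, Vamp3 and Vamp5) and lower for 2 (Stx17 and Stx1a). Over all genes 3.08% were called, 1.72% higher and 1.37% lower, and the members' 4 calls are 8.16% of those tested. The members were chosen with earlier results of these data known, so the difference between these shares is a description and was not tested.

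The probes behind these 4 genes are printed so that the part of each transcript that was read can be seen. Positions are those of the array files (mouse build mm9), all on the plus strand, and letters run 5′ to 3′. Exons and UTRs were not assigned, since the annotation at hand is of another build. Capitals mark AATAAA, the usual polyadenylation signal. Of all 41174 probe sequences 4.78% hold AATAAA as written and 8.80% on either strand. Whole probes of 60 bases are shown for Syt13 and Vamp4 upstream; otherwise the last 30 bases are shown.
Syt13 upstream, chr2:92780991-92781050: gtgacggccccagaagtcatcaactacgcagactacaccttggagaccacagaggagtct
Syt13 downstream, chr2:92795818-92795877: tcttacagtggtaAATAAAtcgttttccaa
Sgip1 upstream of the measured probes, chr4:102555879-102555938: tatgagtcattgcgagtcAATAAAtgctcc
Sgip1 first measured, chr4:102643625-102643684: agaatcaaaacacagagaaggatggaggaa
Sgip1 second measured, chr4:102644183-102644242: atctatgttctcttcgatcaacgcttgcta
Sytl2, chr7:97558507-97558566: acattgaattccatgttagggcagtaagac
Vamp4 upstream, chr1:164511997-164518382: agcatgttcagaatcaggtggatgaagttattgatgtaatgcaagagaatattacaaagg
Vamp4 downstream, chr1:164528962-164529021: caatccctaatttaaccatttcggcaagtg
The 60 bases of the upstream Vamp4 probe cover a span of 6386 bases in the genome, so this probe reads spliced RNA. The starts of the Syt13 probes lie 14827 bases apart, those of the Vamp4 probes 16965 bases and those of the measured Sgip1 probes 558 bases.

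Before the ratios, the samples were checked against their labels. Cd4 and Cd3e were well above background on all 6 arrays in either treatment, and among the tested CD4 T cell genes Ccr7 rose and Il7r fell. Markers of B cells (5 tested), macrophages (5), neutrophils (4), dendritic cells (4), NK cells (4), CD8 T cells (2), erythroid cells (2) and platelets (3) held no call, and of 4 plasma cell genes Xbp1 rose, while the fitted log2 ratios of Jchain, Prdm1 and Sdc1 were -0.18, -0.080 and -0.036 without passing (median of the 4, -0.058). Cd79a, a B cell gene, was also well above background on all 6 arrays in either treatment. The part of these lists in the members' ratios was not tested. Replicates 3 and 6 stand apart: the VIP sample had 6.12 lower Xist on the log2 scale and 1.95 higher Eif2s3y than its untreated partner on replicate 3, and 2.03 higher Xist and 4.80 lower Eif2s3y on replicate 6, against at most 0.34 in size on the other 4 arrays. The part of this difference in the members' ratios was not tested, and each call is also given without those arrays. Median raw signal per array was 83.6 to 108 intensity units in Cy3 and 148 to 235 in Cy5, 59.1% to 79.0% of spots were well above background in a channel, and the scanner marked 1.93% to 8.96% of spots as outliers. In bulk RNA, fewer cells of a type and less RNA per cell cannot be told apart.

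Detection came first. A probe counted as detected when the scanner found it well above background on at least 3 arrays in either treatment, and 50 of the 61 genes had such a probe. All 6 arrays in both treatments detected 42 genes, among them all 7 VAMPs, all 3 Unc13 genes, Nsf and Napa, 13 of 15 syntaxins and 4 of 5 synaptotagmin-like genes. Of the 17 synaptotagmins only 6 reached that mark: Syt3, Syt10, Syt11, Syt13, Syt15 and Syt16. These counts rest on the best probe of each gene, and other probes did not always reach it. The other probes of Syt16 and of Unc13a were well above background on no array. The other Syt15 probe was so on 1 array in each treatment, and the other Syt10 probe on 2 with VIP and 3 without. Syt2, Syt4, Sytl4, Snap91 and Stxbp6 were well above background on no array. Snap25, the neuronal target SNARE, was detected on 2 arrays with VIP and 1 without at its best probe. The 12 genes without a test were these 6, Syt5, Syt14, Syt17, Stx19 and Stxbp5l, which were too dim, and Syt16, whose detected probe was measured on 3 arrays and marked as an outlier on the others.

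**Figure D1:**
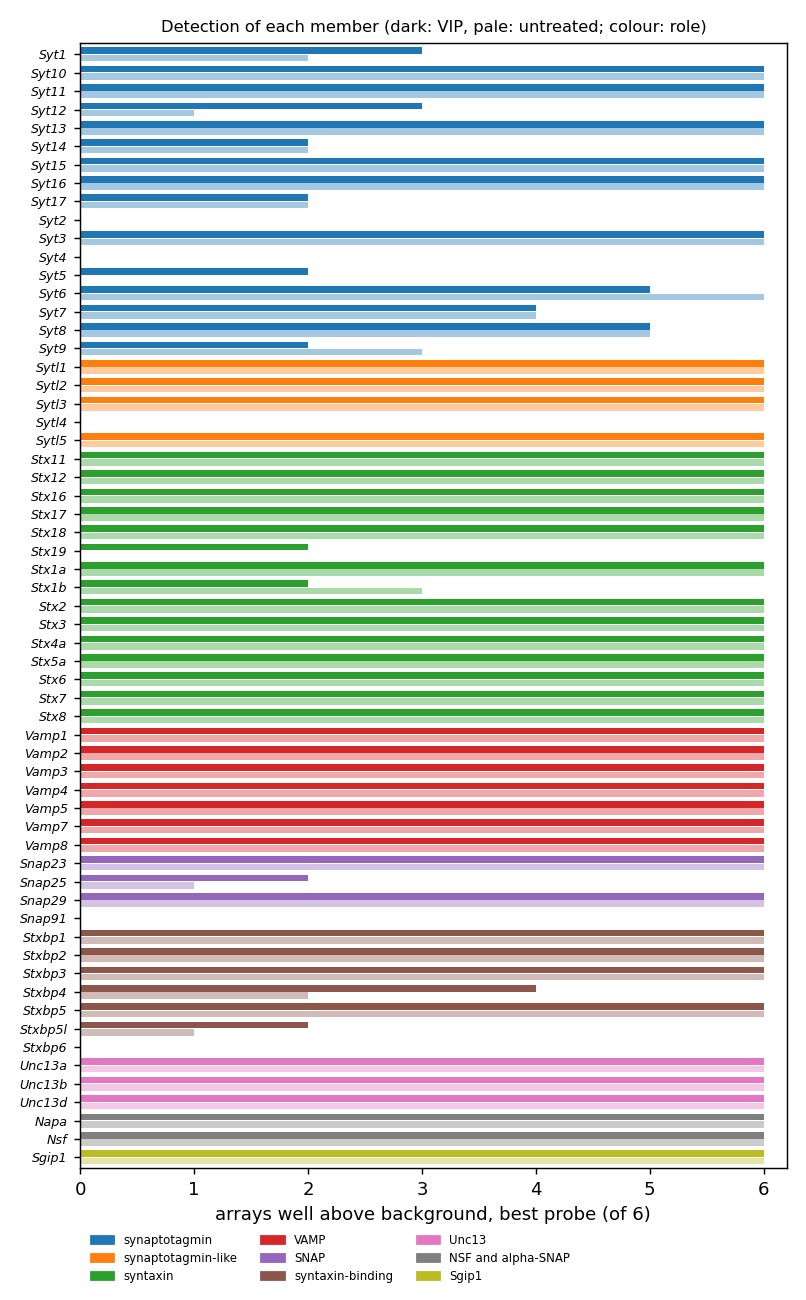
For each of the 61 genes, bars give the number of arrays (0 to 6) on which its best probe was well above background, dark for VIP and pale for untreated samples, coloured by role. Syntaxins and VAMPs fill the axis for nearly all genes, whereas 6 of 17 synaptotagmins reach 6 arrays in both treatments.

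Syt13 was the most changed member. The level of its downstream probe, as log2 intensity after normalisation between arrays, was 7.95 at the lowest, 8.43 at the median and 9.17 at the highest of the 6 VIP samples. In the 6 untreated samples it was 7.02, 7.25 and 7.53. The treatments did not overlap: the lowest VIP sample lay above the highest untreated one. Such separation was found for 2 of the 49 members, Syt13 and Sgip1, and for 0.281% of all genes.

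The log2 ratio of VIP over untreated at the downstream Syt13 probe was 1.23, 1.36, 1.65, 0.89, 1.47 and 0.73 on replicates 1 to 6, so all 6 arrays were higher with VIP. The fit gave 1.22 ± 0.079 (SE, n = 6 arrays; limma adjusted p = 6.1e-05). Within the 3 slides, where the dye cancels, the mean ratios were 1.296, 1.266 and 1.101. Without replicates 3 and 6 it was 1.24 (limma adjusted p = 0.00073). The size differed between settings: the authors' deposited ratios gave 1.80 and a smaller normexp offset of 10 gave 1.54, both still called.

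The upstream Syt13 probe gave another reading. It was well above background on 5 arrays with VIP and all 6 without, and its ratios were 0.055, 0.040, -0.047, -0.042, 0.014 and 0.012. The fitted value was 0.0054 ± 0.040 (SE, n = 6), with a 95% interval from -0.083 to 0.094. VIP levels ran from 6.55 to 8.02 and untreated levels from 6.59 to 8.07, overlapping throughout. In the authors' deposited ratios this probe stood at -0.0040 ± 0.11 (SE), and with the offset of 10 at 0.0050 ± 0.051. The 2 probes thus differed by 1.22 on the log2 scale, and the rise in Syt13 rests on the downstream probe that carries AATAAA near its end. With the mean of both probes in its place, the Syt13 ratio was 0.61 (limma adjusted p = 0.00032). Of the 25 members with more than 1 measured probe, only Syt13 had probes more than 0.5 apart; the next largest spread was that of Sgip1.

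Syt13 is best known from neuroendocrine and neural cells. Of 6 genes listed as markers of such cells 4 could be tested, none was called, and Snap25 and Scg2 were not tested. The fitted log2 ratios of the 4 ran from -0.19 for Chgb (limma adjusted p = 0.075) to 0.057 for Chga. The summed level of the 3 measured on all arrays ran from 8.79 to 9.38 in VIP samples and from 8.84 to 9.53 in untreated ones.

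Of the other synaptotagmins 10 were tested and none passed, with fitted log2 ratios from -0.068 for Syt3 to 0.098 for Syt15. Syt7, a calcium sensor of lysosome and granule exocytosis, stood at 0.058 ± 0.060 (SE, n = 6), at a probe detected on 4 arrays in each treatment. The other Syt7 probes were well above background on no array. Syt11, which does not bind calcium and acts in membrane trafficking of immune and glial cells, stood at 0.049 ± 0.050 (SE, n = 5). Syt1 and Syt9, calcium sensors of neuronal and endocrine release, stood at 0.041 and 0.036 on probes detected on 3 or fewer arrays in either treatment. The probe that stands for Syt10 had log2 levels from 15.4 upward in VIP samples, while its other probe was well above background on 2 arrays with VIP and 3 without; the fitted ratios of these probes were -0.027 and -0.0045.

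Sytl2, a Rab27 effector of granule docking, was the only called gene of 4 tested synaptotagmin-like members. Its VIP levels were 9.92, 10.60 and 11.03 at the lowest, median and highest, and its untreated levels 9.65, 10.08 and 10.92, so the treatments overlapped. The log2 ratios on replicates 1 to 6 were 0.78, 0.21, 0.75, 0.077, 0.76 and -0.22. The 3 arrays with VIP in Cy5 averaged 0.76 ± 0.015 (SD, n = 3) and the 3 with VIP in Cy3 0.022 ± 0.22 (SD, n = 3), so 5 of 6 arrays were higher and the high ones were those of a single dye orientation. With the dye term the fit gave 0.39 ± 0.055 (SE, n = 6; limma adjusted p = 0.0042), and within slides the means were 0.50, 0.41 and 0.27. Without a dye term the call was lost (limma adjusted p = 0.34), as it was in the authors' deposited ratios (0.44, limma adjusted p = 0.073); without replicates 3 and 6 it held (0.46, limma adjusted p = 0.0051). Sytl1, Sytl3 and Sytl5 stood at 0.026, 0.073 and -0.089.

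**Figure D2:**
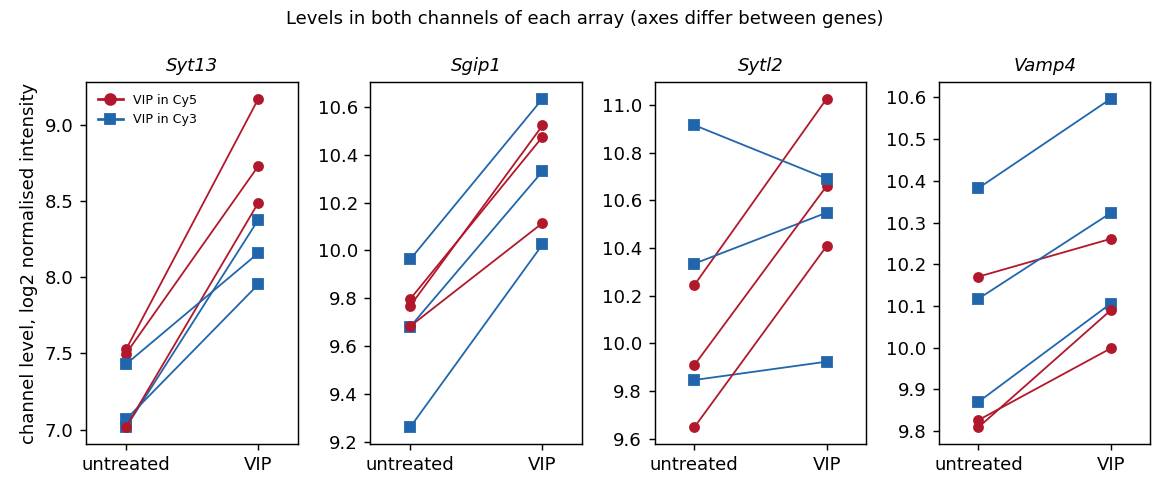
Log2 normalised intensity in the untreated and VIP channels of each array for Syt13, Sgip1, Sytl2 and Vamp4; each line joins the samples of 1 array, red circles with VIP in Cy5 and blue squares with VIP in Cy3, with a separate axis per gene. Syt13 and Sgip1 lines all rise and the treatments do not overlap, Vamp4 lines rise by little, and a Sytl2 line falls.

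Among the vesicle SNAREs, Vamp4, which serves traffic between endosomes and the trans-Golgi network, was called. VIP levels were 9.998, 10.18 and 10.597 at the lowest, median and highest, and untreated levels 9.81, 9.99 and 10.38, with wide overlap. The downstream probe had ratios of 0.17, 0.24, 0.28, 0.21, 0.091 and 0.21, all 6 higher with VIP. The fit gave 0.20 ± 0.042 (SE, n = 6; limma adjusted p = 0.029). The call is close to the threshold: leaving out any array in turn ended it, at adjusted p from 0.061 to 0.097 in limma, and without replicates 3 and 6 it was 0.13. The authors' deposited ratios gave 0.22 (limma adjusted p = 0.15). In all, the Vamp4 call was lost under 13 of the 21 alternative settings. These included an offset of 10 (limma adjusted p = 0.088), median centring in place of loess (0.11) and no dye term (0.097).

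The upstream Vamp4 probe, the spliced one printed above, was 0.12 ± 0.039 (SE, n = 6; limma adjusted p = 0.15 over all measured probes). Its ratios with VIP in Cy5 averaged 0.24 ± 0.025 (SD, n = 3) and with VIP in Cy3 0.0034 ± 0.028 (SD, n = 3). The rest of the family did not pass. Vamp3 (cellubrevin, of recycling endosomes) stood at 0.12 ± 0.040 (SE, n = 6) and Vamp5 at 0.093 ± 0.041. Vamp8 and Vamp7, which act in late endosome and lysosome fusion and in granule release, stood at -0.045 and 0.021, and Vamp1 and Vamp2, the synaptobrevins, at 0.021 and -0.011.

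**Figure D3:**
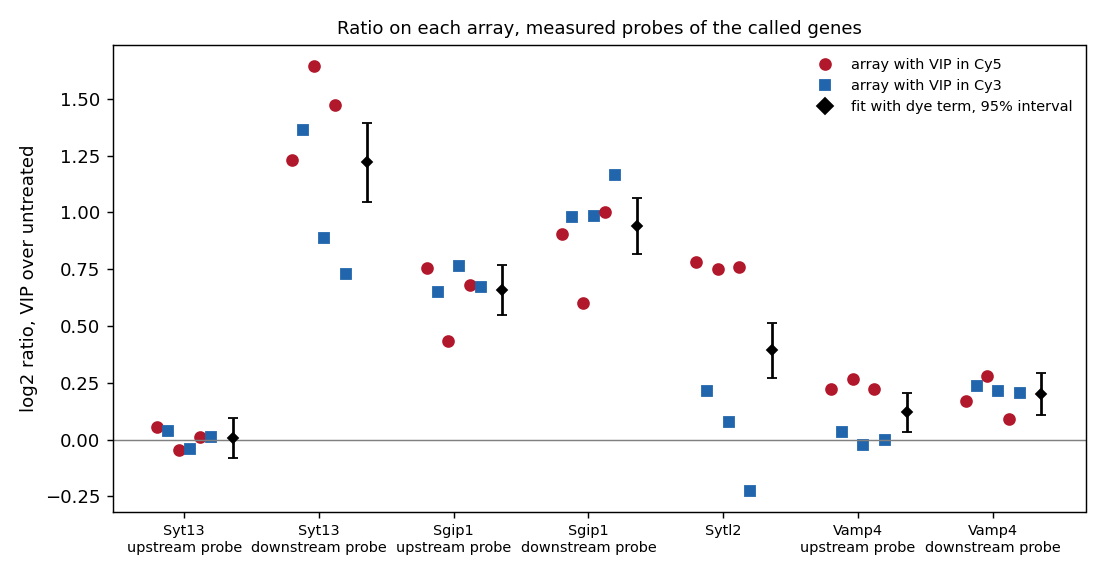
Log2 ratio of VIP over untreated on each of the 6 arrays at the 7 measured probes of the called genes, red circles with VIP in Cy5 and blue squares with VIP in Cy3; black diamonds are the fits with 95% intervals. The Syt13 probes fit at 0.0054 and 1.22, both Sgip1 probes are above 0 on all arrays, and Sytl2 and the upstream Vamp4 probe split by dye orientation.

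On the target side, 14 of 15 syntaxins were tested and none was called. The lowest p was that of Stx17, the syntaxin of autophagosome fusion. VIP levels of Stx17 were 8.66, 9.21 and 9.36 at the lowest, median and highest and untreated levels 8.91, 9.35 and 9.49, overlapping. Its ratios were negative on all 6 arrays, from -0.25 to -0.040, and the fit gave -0.16 ± 0.046 (SE, n = 6; limma adjusted p = 0.0998). The second Stx17 probe stood at -0.040.

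Another 4 syntaxins had an unadjusted p under 0.05 without passing. Stx7 and Stx12, of endosomes, stood at 0.15 and 0.12, Stx11, of lytic granule release in cytotoxic lymphocytes, at 0.13, and Stx1a, the neuronal syntaxin, at -0.12. They are named here after their values were seen. Ratios of Stx12 averaged -0.12 on arrays with VIP in Cy5 and 0.37 on arrays with VIP in Cy3. The Stx12 ratio was higher with VIP on 3 of 6 arrays. Across all members 11 of 49 (22.4%) had an unadjusted p under 0.05, beside 16.7% of all genes. Stx3 and Stx4a, plasma membrane syntaxins, stood at 0.035 and -0.0017, and Stx5a and Stx16, of the Golgi, at 0.048 and -0.080. Stx4a had the widest interval among these, from -0.16 to 0.16. The array files place the probe that stands for Stx3 on the plus strand and the other Stx3 probes on the minus strand. The measured ones on the minus strand stood at 0.036 and 0.040.

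Of the SNAP genes Snap23, the partner of plasma membrane syntaxins outside neurons, stood at 0.080 ± 0.043 (SE, n = 6; limma adjusted p = 0.39) and Snap29 at -0.049 ± 0.091. Snap29 had a ratio of -0.71 on replicate 4 and values from 0.046 to 0.13 on the other 5 arrays. Snap23 was well detected and its levels overlapped, from 10.5 to 10.7 with VIP and from 10.4 to 10.7 without. All 5 tested Stxbp genes were slightly positive, from 0.0062 for Stxbp3 (Munc18c) to 0.082 ± 0.050 for Stxbp2 (Munc18-2, the partner of Stx11; SE, n = 6; limma adjusted p = 0.47). Unc13d, which primes lytic granules, stood at 0.032 ± 0.051 and Unc13a, the neuronal form, at 0.059 ± 0.039 (SE, n = 6; limma adjusted p = 0.51). Napa stood at 0.075 ± 0.045 (limma adjusted p = 0.45) and Nsf at 0.045 ± 0.070 (SE, n = 6).

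For the 45 genes that did not pass, the pointwise 95% intervals bound the size of change. All 45 lie within 0.3 of 0 on the log2 scale, from -0.26 at the lowest to 0.29 at the highest, that is at most 1.22-fold up or 1.20-fold down. Of all genes not called, 94.8% had intervals within the same limits. The fitted values were positive for 36 of the 49 members, with a median of 0.043, against 47.1% positive and a median of -0.0047 over all genes. The median moved with a single array: it was 0.022 without replicate 3, whose own median over the members was 0.14, and 0.019 without replicates 3 and 6.

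**Figure D4:**
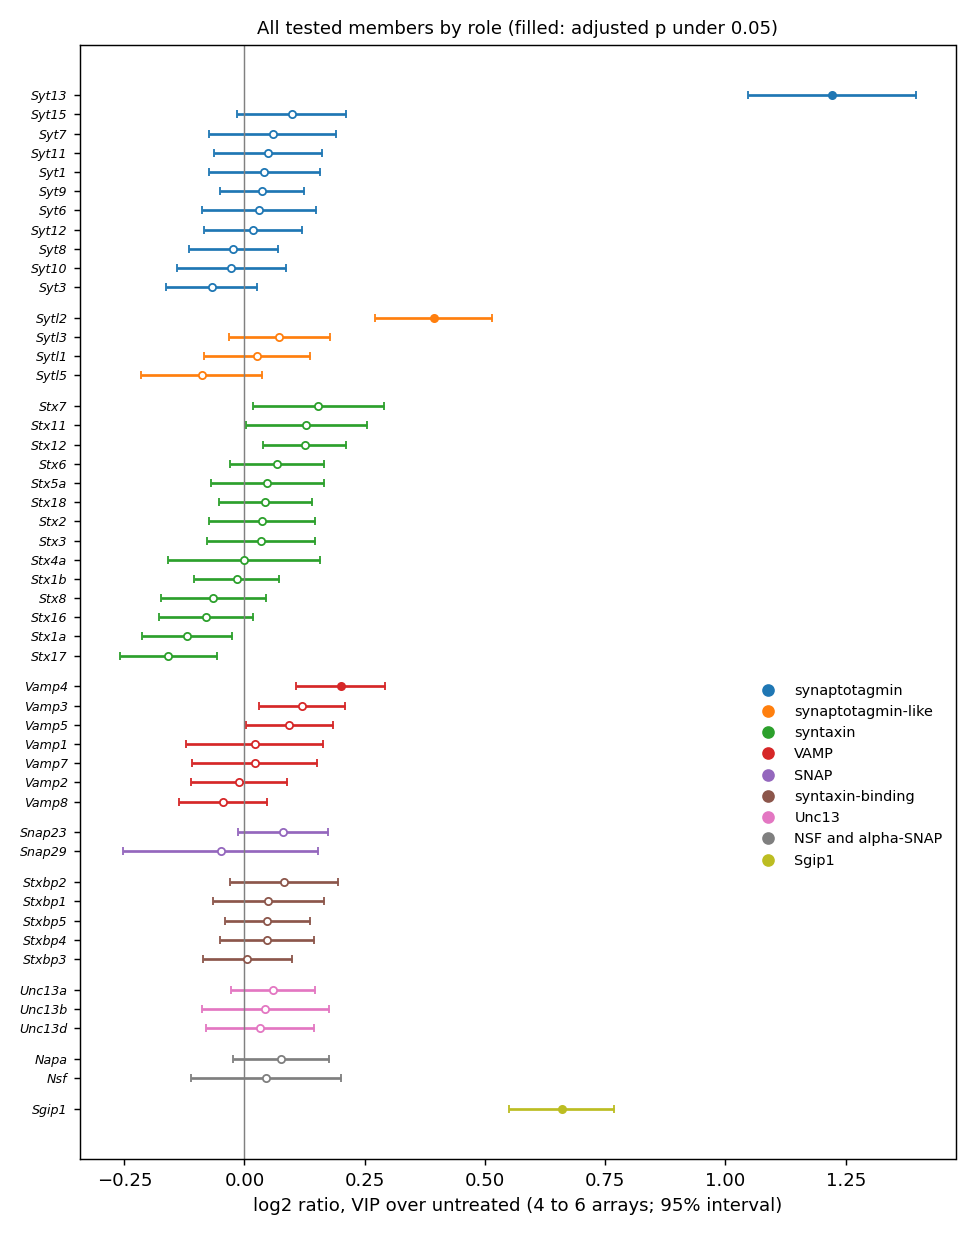
Fitted log2 ratio of VIP over untreated with its 95% interval for the 49 tested genes, grouped and coloured by role; filled points have an adjusted p under 0.05. Syt13 at 1.22, Sgip1 at 0.66, Sytl2 at 0.39 and Vamp4 at 0.20 are filled, and the other 45 intervals lie between -0.26 and 0.29.

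Sgip1 stands apart from the fusion machinery: its product binds membranes and endocytic adaptors and takes part in clathrin-mediated endocytosis, by which vesicle proteins are taken back. VIP levels at the probe that stands for it were 10.02, 10.40 and 10.63 at the lowest, median and highest and untreated levels 9.26, 9.72 and 9.96, without overlap. The ratios on replicates 1 to 6 were 0.76, 0.65, 0.43, 0.76, 0.68 and 0.67, and the fit gave 0.66 ± 0.050 (SE, n = 6; limma adjusted p = 8.7e-05). Within slides the means were 0.70, 0.60 and 0.68, and without replicates 3 and 6 the value was 0.71 (limma adjusted p = 0.00075).

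The second measured Sgip1 probe rose as well, with ratios of 0.90, 0.98, 0.60, 0.99, 1.00 and 1.16. Its fit was 0.94 ± 0.056 (SE, n = 6; limma adjusted p = 4.3e-05 over all measured probes), and its levels did not overlap either, 9.63 to 10.4 with VIP against 8.76 to 9.42 without. Both probes were lowest on replicate 3. The upstream probe printed above with AATAAA was well above background on no array. A further probe between them was well above background on all 6 arrays but was marked as an outlier on all 6; with outliers kept its ratios ran from -0.97 to 0.95 and the fit gave 0.075 ± 0.11 (SE, n = 6). A probe that the files name Sgip1 but place on chromosome 16, while the other 4 lie on chromosome 4, was well above background on 0 arrays with VIP and 1 without.

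Around the members, 113 other genes of regulated exocytosis and endocytosis were listed (the exocyst, complexins, further SNAREs and SNAP adaptors, further Munc18-like proteins, Rab3 and Rab27 with their effectors, priming factors, granule trafficking, vesicle membrane proteins and the endocytic partners of Sgip1). Of these 91 were tested and none was called higher or lower in limma, with 11 (12.1%) at an unadjusted p under 0.05, beside 16.7% of all genes, and a median log2 ratio of 0.0022. Their fitted ratios ran from -0.20 for Vti1a, an endosomal SNARE, to 0.31 for Snx18, a sorting nexin of endocytosis that binds dynamin. Snx18 came nearest to the threshold, at 0.31 ± 0.074 (SE, n = 6; limma adjusted p = 0.054).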

How the data were processed

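Each array was deposited as a scanner table whose intensity columns hold mean and background signals per spot, made with Agilent Feature Extraction 9.5.1.1 per the file headers. The authors' deposited value table holds log10 ratios; these equalled the scanner's log10 ratio turned to VIP over untreated (largest difference 4.77e-06 over 270108 values). The scanner's processed intensity, also deposited, served as an alternative.

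Signals were corrected with normexp (offset 50) and loess within arrays in limma 3.58.1 (R 4.3.3), with control and outlier spots at weight 0. Probes had to be well above background on at least 3 of 6 arrays in either treatment and to keep 2 or more unmarked arrays in either orientation of the dyes, which left 27454 probes and 19225 genes. The brightest kept probe stood for its gene, as named through RefSeq accessions (24844 of 41174 probes matched) or the file. The fit had VIP and dye terms, eBayes and Benjamini-Hochberg adjustment over all genes; pairing is within arrays. The number of arrays limits precision. Channel levels followed Aquantile and are descriptions. The fitting step alone was tested on simulated log ratios that had the dye terms and spreads of the real genes. That simulation did not cover background correction, loess or the choice of probes.

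The members and the lists were chosen with earlier results of these data known. Named were every called member, the lowest p in each role class without a call, all probes of Syt13 and Sgip1, and members whose probes differed by over 0.5; other members are examples chosen after their values were seen. Ratios at dim probes are pulled toward 0 by the offset. Some marker genes are not reported here.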

Additional observations from a re-analysis of the deposited data

How the results depend on the processing

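No member was called lower under any of the 21 alternatives, and Syt13 and Sgip1 were called higher under all except the fit of 12 channels as unpaired samples. Members called higher, 4 in the report, numbered 2 with the scanner's processed signals, 2 with the authors' deposited values, 2 without a dye term and 0 with unpaired channels (Syt13 1.22, adjusted p = 0.051; Sgip1 0.66, adjusted p = 0.31). Genes called over all, 593 in the report, numbered 33 with processed signals, 41 with the authors' values, 286 with an offset of 10, 308 with median centring, 1033 with 12 channels and intraspot correlation, 124 without a dye term, 5 with unpaired channels, 323 without replicates 3 and 6 (chosen after seeing the data) and 247 to 461 leaving out each array in turn. Intraspot correlation also called Stx12 and Vamp3, and leaving out replicate 2 called Stx7. Members called numbered 3 to 4 with an array left out. The cause of these changes was not tested. Slide as a fixed block kept all 4 calls, over genes measured on all arrays. The fit pairs the treatments within each array; the dye orientations share no replicate numbers, so no further block by number was fitted.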
